A study of Mus musculus with 12 samples.

Results

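Lysophosphatidic acid (LPA) is a small signalling lipid, and the genes described here are its receptors Lpar1, Lpar2, Lpar3, Lpar4 and Lpar6 and the enzyme that makes it outside cells, autotaxin (Enpp2). They are 6 of the 27670 gene names on the array and were taken by name, older symbols included, with 10 probes between them. The family was selected on measured values: Lpar4 had the lowest unadjusted p of all genes in the comparison of DEHP with vehicle. Every value from that comparison is therefore a description. All 6 genes passed the filter on dim probes through at least 1 probe, as did 8 of the 10 probes.

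The RNA came from Leydig cells, the testosterone-producing cells between the seminiferous tubules, cut by laser from frozen testis sections of adult male C57BL/6J mice aged 21 weeks. DEHP mice were gavaged for 21 days with the plasticiser di-(2-ethylhexyl) phthalate, dissolved in corn oil, at a daily dose of 200 mg per kg, and vehicle mice with corn oil alone. Each of 2 DEHP mice (numbers 1 and 4) was hybridised against each of 3 vehicle mice (numbers 1, 2 and 4) on 2-colour Agilent arrays, with Cy5 and Cy3 in both orientations, which gave 12 arrays on 3 slides. The labels speak of 4 mice per group, and mice outside these 5 were not used here. The RNA of each mouse came from its own capture and was amplified for 2 rounds.

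Autotaxin cleaves lysophosphatidylcholine to LPA in the extracellular fluid. LPA then acts on G protein-coupled receptors of separate branches: Lpar1, Lpar2 and Lpar3 belong to the EDG branch, close to the sphingosine 1-phosphate receptors, while Lpar4 and Lpar6 belong to the P2Y-like branch. The receptors act through Gi, Gq, G12 and G13 or, for Lpar4, also through Gs, and G12 and G13 act on the actin cytoskeleton. In the mouse testis, combined loss of the 3 EDG-type receptors is known to lower sperm production with age.

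Probe spots well above background made up 45.4% to 54.4% of an array in Cy5 and 35.5% to 46.1% in Cy3. The 10 Leydig cell markers, such as Insl3 and Star, were all measured, with a mean log2 intensity over the list between 9.53 in DEHP mouse 4 and 10.88 in DEHP mouse 1. Spermatid markers, such as Prm1 and Tnp2, were measured too (10 of 10 genes), at a mean log2 intensity between 12.10 and 13.53. Markers of macrophages (9 of 9), endothelium (6 of 8, without Tie1 and Eng) and peritubular myoid cells (6 of 6) also passed the filter. In such bulk material fewer cells of a type and less RNA per cell cannot be told apart.

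The probes decide what can be seen of these receptors, so the first 30 of the 60 bases are shown for the genes whose results turn on them, 5′ to 3′ as the scanner files give them. For Lpar4 the probe that represents the gene comes first and the near-silent one after it; for Lpar6 and Lpar1 both probes gave values; for Lpar3 there was a single probe.
Lpar4, A_52_P438036: gggacacattacagccagagagctacagta
Lpar4, A_52_P370162: cttcactcttgaatcctttcagaagtcctt
Lpar6, A_51_P234728: ctccgtgttcaactgtgaaaactgtgttct
Lpar6, A_52_P601148: ttgtttactacttcacctcagacacaattc
Lpar1, A_51_P475573: gaaaagcatactaattgaaccttaataaat
Lpar1, A_52_P507802: ctactttagttgcgaatgggttcttgacaa
Lpar3, A_51_P134452: gttttcggtgtaagacgtttagagtgtatc

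The scanner files place these probes on mouse assembly mm7, on the strand that RefSeq gives for their gene. The Lpar4 probes lie at chrX:102259549-102259608 and, 1043 bases upstream, chrX:102258506-102258565. The Lpar6 probes lie at chr14:67921380-67921439 and chr14:67921184-67921243, 196 bases apart, and the Lpar1 probes at chr4:58476634-58476693 and, 607 bases upstream, chr4:58477241-58477300. Lpar3 was read at chr3:146184315-146184375. Exon and UTR positions were not determined here. Enpp2 was read at chr15:54899174-54899231 and Lpar2 at chr8:68285590-68285649.

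A mouse's value below is its log2 level minus the mean level over the 5 mice, fitted to the 12 normalized array ratios, and a mean ± SD has n = 2 for DEHP and n = 3 for vehicle. Over all 15830 tested genes, limma found 0 (0%) with an adjusted p under 0.05 between DEHP and vehicle mice, 136 with an unadjusted p under 0.05, and a median difference of -0.01. Of the 6 LPA genes, 0 passed, 4 had a difference above 0 and 2 below, and their median difference was 0.10. Both DEHP mice lay above all 3 vehicle mice for 1 of the 6, Lpar4 (3.95% of all tested genes), and below them for 1, Lpar3 (5.22% of all tested genes). Since the comparison chose the family, nothing is read from these counts.

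**Figure D1:**
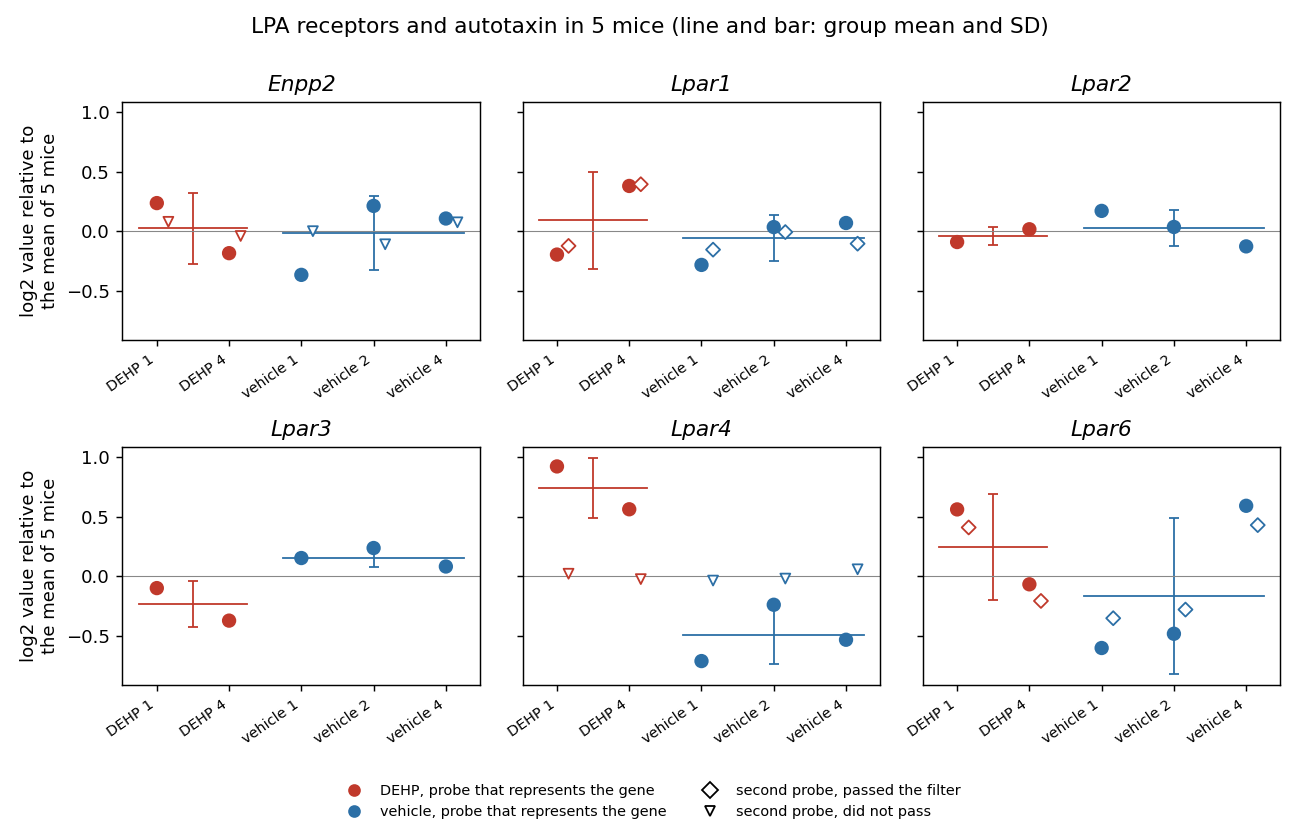
Log2 value of each mouse (y axis) for every probe of the 6 genes, DEHP mice on the left in red and vehicle mice on the right in blue; lines and bars give the group mean and SD of the probe that represents the gene, and open symbols the second probe. Both DEHP mice lie above all vehicle mice in Lpar4 (3.95% of all tested genes) and below them in Lpar3 (5.22% of all tested genes). For Lpar3 the gap is narrow, with -0.10 in DEHP mouse 1 against 0.08 in vehicle mouse 4. In Enpp2, Lpar1 and Lpar6 the mice of a group lie as far apart as the groups.

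Enpp2, which encodes autotaxin, was well above background in all 24 channels through its main probe. Its log2 values were 0.24 in DEHP mouse 1 and -0.19 in DEHP mouse 4, against -0.37, 0.21 and 0.11 in vehicle mice 1, 2 and 4. The groups overlapped, at 0.02 ± 0.30 in DEHP mice against -0.02 ± 0.31 in vehicle mice, and differed by 0.04 (SE 0.27, 95% interval -0.63 to 0.71). That interval spans a change of the size seen in Lpar3, so such a change was not detectable with 5 mice. A second Enpp2 probe, 34365 bases upstream and named in the files through a cDNA clone, was well above background in 0 of 24 channels.

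Lpar1, the most widely expressed of the EDG-type receptors, was also measured in all 24 channels. Its values were -0.20 and 0.38 in DEHP mice 1 and 4, against -0.28, 0.03 and 0.07 in vehicle mice 1, 2 and 4. DEHP mouse 4 stood highest, while DEHP mouse 1 lay between vehicle mice 1 and 2. The group difference was 0.15 (SE 0.26, 95% interval -0.49 to 0.79). The second Lpar1 probe gave -0.12 and 0.39 in DEHP mice, against -0.16, -0.01 and -0.11 in vehicle mice. It was well above background on 5 of 6 arrays of DEHP mouse 4, 0 of 6 of DEHP mouse 1, 2 of 4 of vehicle mouse 2, and 0 of 4 of vehicle mice 1 and 4. DEHP mouse 4 was thus highest through both probes.

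Lpar2 stayed near the detection limit, being well above background on 4 of 12 DEHP arrays and 7 of 12 vehicle arrays. Its values of -0.09 and 0.02 in DEHP mice, against 0.17, 0.03 and -0.13 in vehicle mice, differed by -0.06 (SE 0.20, 95% interval -0.55 to 0.43). Such low signal limits what this probe could show of a change.

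Lpar3, the EDG-type receptor known in mice for its part in embryo implantation, was low in both DEHP mice. Its values were -0.10 and -0.37 in DEHP mice 1 and 4, against 0.15, 0.24 and 0.08 in vehicle mice 1, 2 and 4. The groups did not overlap, and the spread was small in each, with means of -0.24 ± 0.19 in DEHP mice against 0.16 ± 0.08 in vehicle mice. The difference was -0.39 (SE 0.20, 95% interval -0.88 to 0.10), and its unadjusted p of 0.0961 ranked 455 of 15830 in limma. All 24 channels were well above background, and 11 of the 12 array ratios lay below 0, from -0.81 to 0.26. The exception was the array of DEHP mouse 1 in Cy5 with vehicle mouse 4. Background-subtracted signals in Cy5 ran from 172 to 233 (median 183) in DEHP channels and from 216 to 306 (median 248) in vehicle channels. In Cy3 they ran from 63.1 to 102 (median 73.6) in DEHP channels and from 87.0 to 142 (median 111) in vehicle channels. The raw ranges overlapped in part in each dye, whereas the fitted values of the mice did not.

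Lpar4, a P2Y-like receptor that couples to Gs as well as to G12 and G13 and is known in mice for blood vessel formation, was high in both DEHP mice. Its values were 0.92 and 0.56 in DEHP mice 1 and 4, against -0.71, -0.24 and -0.53 in vehicle mice 1, 2 and 4. The lower DEHP mouse lay above the highest vehicle mouse, with group means of 0.74 ± 0.25 in DEHP mice against -0.50 ± 0.24 in vehicle mice. The difference was 1.24 on the log2 scale (SE 0.24, 95% interval 0.64 to 1.83), a fold of 2.36. Its unadjusted p of 0.00247 is the value that chose the family and is no test, and its limma adjusted p over all genes was 1.00. All 12 array ratios were above 0, from 0.67 for DEHP mouse 4 over vehicle mouse 4 in Cy3 to 1.90 for DEHP mouse 1 over vehicle mouse 4 in Cy5. The residual SD of an array around the fit was 0.24.

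The same separation stood in the unnormalized signals of the Lpar4 probe. All values here come from the arrays that gave the selecting p, so they are a description and no separate support. In Cy5 the DEHP channels ran from 234 to 308 (median 280), and the vehicle channels from 24.9 to 82.3 (median 65.9). In Cy3 the DEHP channels ran from 105 to 164 (median 118), and the vehicle channels from 19.6 to 40.1 (median 33.9). In each dye the dimmest DEHP channel was brighter than the brightest vehicle channel. The probe was well above background on 12 of 12 DEHP arrays and 9 of 12 vehicle arrays, with 2 of 4 in vehicle mouse 1, 4 of 4 in vehicle mouse 2 and 3 of 4 in vehicle mouse 4. The vehicle signal therefore lay close to the detection limit. The difference was 1.67 with a normexp offset of 16 and 2.47 from the scanner software's processed signals, against 1.24 with the offset of 50 used here. On slides 1 and 2 alone it was 1.22 for Lpar4 and -0.43 for Lpar3, and on slide 3 alone 1.28 for Lpar4 and -0.32 for Lpar3. In the authors' deposited table the log2 ratio of this probe was given for 9 of the 12 arrays and ran from 1.19 to 2.51. The second Lpar4 probe was well above background in 1 DEHP and 3 vehicle channels, did not pass the filter, and gives no separate reading of the gene.

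**Figure D2:**
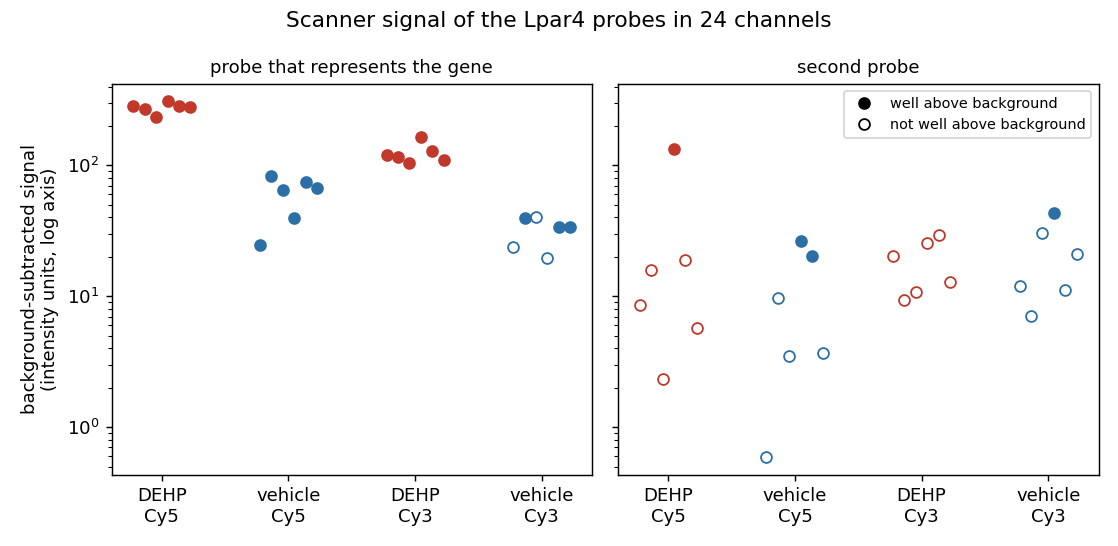
Background-subtracted scanner signal (y axis, log scale, intensity units) of both Lpar4 probes in each dye, DEHP channels in red and vehicle channels in blue, with 6 channels in each column; filled points were well above background. For the probe that represents the gene, DEHP channels run from 234 to 308 in Cy5 and 105 to 164 in Cy3, above all vehicle channels of the same dye, and most points of the second probe are open.

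Markers of other cells differed between the mice beside this. The spermatid list had mean log2 values of 0.01 and 0.86 in DEHP mice 1 and 4, against 0.22, -0.58 and -0.51 in vehicle mice 1, 2 and 4, and 10 of its 10 genes had a difference above 0, with a median of 0.78. In the fitted values Lpar4 was higher in DEHP mouse 1 than in DEHP mouse 4. So were the endothelial, Leydig cell, macrophage, peritubular myoid, Sertoli cell and blood lists. The spermatid, spermatocyte and spermatogonia lists were higher in DEHP mouse 4. With each array centred on its median, the Lpar4 difference of DEHP mouse 4 minus 1 was only -0.06. The unnormalized Lpar4 signals were higher in DEHP mouse 4 in each matched pair of arrays, such as 308 against 284 in Cy5 with vehicle mouse 1. The endothelial list stood at 0.25 and -0.24 in DEHP mice, against -0.67, 0.70 and -0.04 in vehicle mice, 2 of its 6 tested genes above 0 and 4 below. Sertoli cell markers had 1 of 8 genes above 0 and a median difference of -0.34, and peritubular myoid markers had 1 of 6 above 0 and a median of -0.48. Leydig cell markers had 2 of 10 above 0, 8 below and a median of -0.19. The part of these cell types in the Lpar4 and Lpar3 differences was not tested.

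Lpar6, the other P2Y-like receptor, whose human counterpart is known for hair growth, varied more among mice than between the groups. Its values were 0.56 and -0.07 in DEHP mice 1 and 4, against -0.60, -0.48 and 0.59 in vehicle mice 1, 2 and 4. Vehicle mouse 4 and DEHP mouse 1 stood high, DEHP mouse 4 in between, and vehicle mice 1 and 2 low. The groups overlapped, at 0.25 ± 0.45 in DEHP mice against -0.16 ± 0.66 in vehicle mice, and differed by 0.41 (SE 0.43, 95% interval -0.66 to 1.48). Without vehicle mouse 4, whose arrays make up slide 3, the difference was 0.79, and on slide 3 alone it was -0.35. The second Lpar6 probe gave 0.41 and -0.21 in DEHP mice, against -0.35, -0.28 and 0.43 in vehicle mice, the same order of mice with a smaller spread. Both probes were well above background in all 24 channels.

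Lpar6 lies inside the bounds of Rb1, the retinoblastoma tumour suppressor gene, in RefSeq's annotation of GRCm38.p6. The Rb1 probe that passed the filter gave -0.09 and -0.15 in DEHP mice, against -0.02, 0.04 and 0.22 in vehicle mice. Rb1 therefore spanned far less between mice than Lpar6 did.

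**Figure D3:**
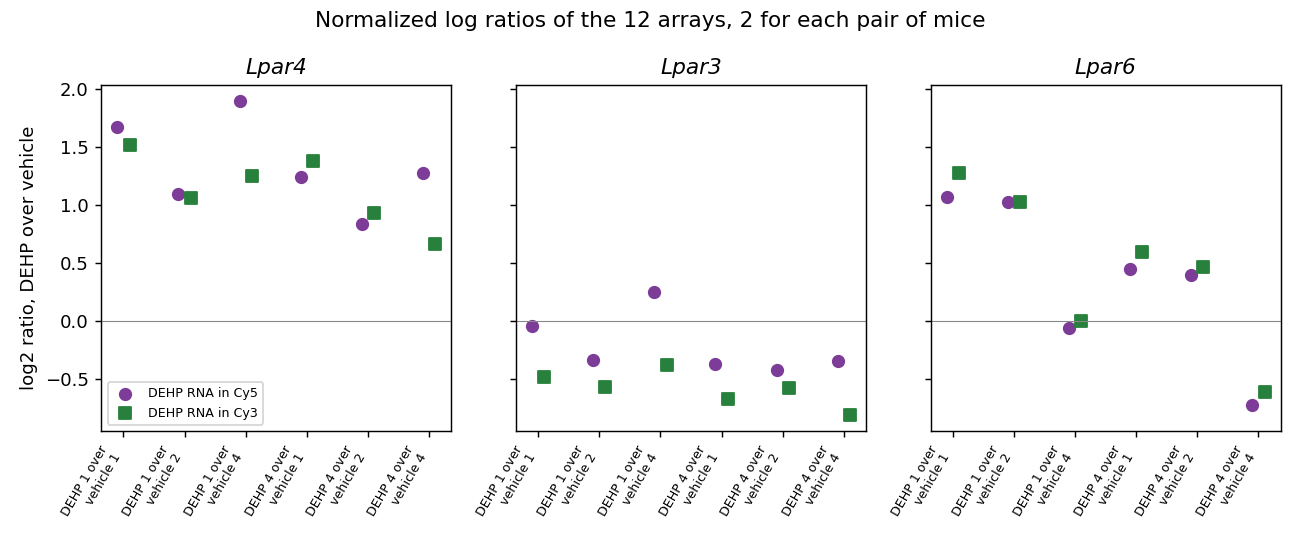
Normalized log2 ratio of DEHP over vehicle (y axis) on each of the 12 arrays for Lpar4, Lpar3 and Lpar6, by pair of mice (x axis), with circles for DEHP RNA in Cy5 and squares for DEHP RNA in Cy3. The Lpar4 ratios run from 0.67 to 1.90, 11 of 12 Lpar3 ratios lie below 0, and the Lpar6 ratios change with the vehicle mouse, from near 1 against vehicle mice 1 and 2 for DEHP mouse 1 to near 0 against vehicle mouse 4.

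Differences between mice of the same group were tested with limma on the 12 array ratios for the genes other than Lpar4. The spread within groups entered the p that selected Lpar4, so its own differences are given with no test. The comparisons set side by side the RNA extracts of single mice, with repeated arrays as the error, and say nothing of conditions. Such differences were common, and the LPA genes are read against that background. Between DEHP mice 4 and 1, 4 of the 5 other LPA genes passed an adjusted p of 0.05, against 77.4% of all tested genes. Between vehicle mice 1 and 2, 3 of the 5 passed, against 71.0% of all. Between vehicle mice 4 and 2, 1 of the 5 passed, against 57.4% of all, and between vehicle mice 1 and 4, 3 of the 5, against 68.8% of all. The SE of these differences ran from 0.08 to 0.14 for Lpar2, Lpar3 and Lpar4 and from 0.03 to 0.05 for Enpp2, Lpar1 and Lpar6.

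Lpar6 showed the widest such difference of the family. It was lower in vehicle mouse 1 than in vehicle mouse 4 by a log2 difference of -1.20 (SE 0.05, limma adjusted p = 2.08e-09), and higher in vehicle mouse 4 than in vehicle mouse 2 by 1.08 (SE 0.05, limma adjusted p = 3.29e-08). Through the second Lpar6 probe these differences were -0.78 and 0.71, both past the threshold over all probes. Vehicle mice 1 and 2 differed by only -0.12 (SE 0.05, limma adjusted p = 0.0339), a call that the second probe did not share (-0.07, limma adjusted p = 0.192). Vehicle mouse 4 was run on slide 3 alone, while both DEHP mice were run on all 3 slides. In Cy3 the vehicle signals of the main Lpar6 probe were 537 to 727 on slide 1 and 1874 to 2057 on slide 3. On the same arrays the DEHP signals in Cy5 were 2661 to 3082 on slide 1 and 2528.5 to 3076 on slide 3. The part of the slide in the level of vehicle mouse 4 was not tested. DEHP mouse 4 was lower than DEHP mouse 1 by a log2 difference of -0.63 (SE 0.04, limma adjusted p = 2.81e-08), with -0.62 through the second probe.

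Enpp2 was lower in vehicle mouse 1 than in vehicle mouse 2 (difference -0.58, SE 0.04, limma adjusted p = 2.72e-07) and than in vehicle mouse 4 (difference -0.47, limma adjusted p = 1.68e-06). In DEHP mice it was lower in mouse 4 than in mouse 1 (difference -0.42, SE 0.03, limma adjusted p = 5.63e-07). Lpar1 ran the other way in DEHP mice, higher in mouse 4 than in mouse 1 by 0.58 (SE 0.03, limma adjusted p = 3.71e-08). The second Lpar1 probe was not well above background on any array of DEHP mouse 1, so it gives no size for that difference. In vehicle mice Lpar1 was lower in mouse 1 than in mouse 2 (difference -0.32, limma adjusted p = 4.32e-05) and than in mouse 4 (difference -0.35, limma adjusted p = 2.02e-05). The second Lpar1 probe did not share these vehicle differences (-0.15 and -0.05), but was not well above background on any array of vehicle mice 1 and 4.

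The values of Lpar4 within each group, as a description, differed by -0.36 (SE 0.12) between DEHP mice 4 and 1, by -0.47 (SE 0.14) between vehicle mice 1 and 2, by -0.29 between vehicle mice 4 and 2 and by -0.18 between vehicle mice 1 and 4. Each was smaller in size than the group difference of 1.24, an order that the selection of Lpar4 by its p favoured. Lpar3 was lower in DEHP mouse 4 than in DEHP mouse 1 (difference -0.27, SE 0.08, limma adjusted p = 0.0110), and no pair of vehicle mice passed for Lpar3.

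The scaling of the arrays bears on the comparison of DEHP mice 4 and 1. The median difference of all tested genes was 0.30 with each array centred on its median and -0.05 with loess, and median centring turned the differences of Lpar6 to 0.03, Enpp2 to 0.14 and Lpar3 to 0.08, while that of Lpar4 shrank to -0.06. Relative to the median of all genes, the differences under loess were -0.58 for Lpar6, -0.37 for Enpp2, -0.23 for Lpar3 and -0.31 for Lpar4. Under median centring they were -0.28 for Lpar6, -0.16 for Enpp2, -0.22 for Lpar3 and -0.36 for Lpar4, below the median of all genes in each case. Lpar1 stood above it under both, at 0.62 and 0.66.

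**Figure D4:**
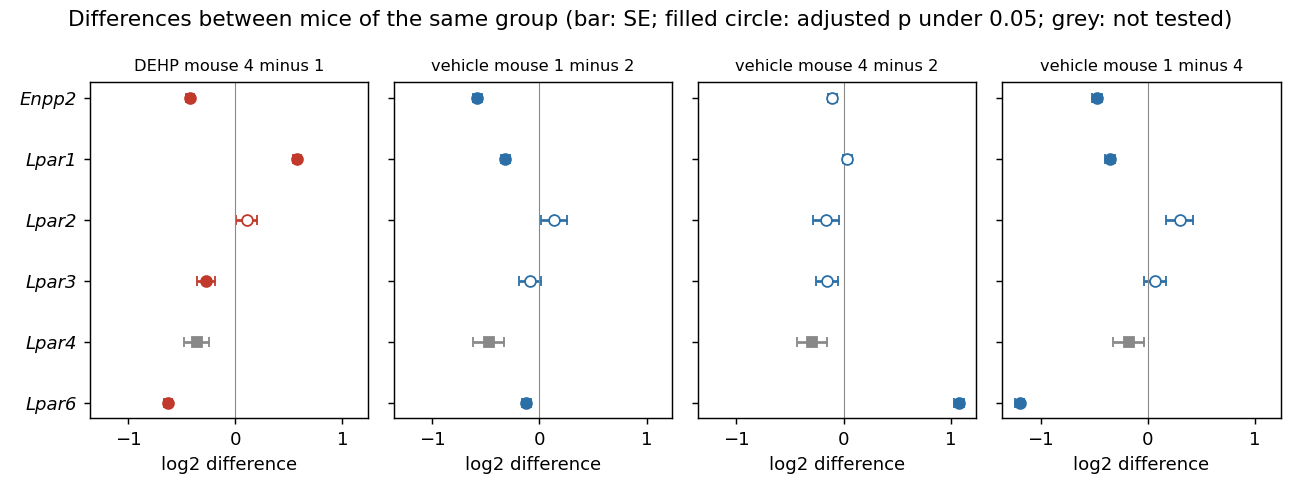
Log2 difference (x axis) between mice of the same group for each gene, with the DEHP pair on the left and the 3 vehicle pairs after it; bars are the SE and filled points passed an adjusted p of 0.05; grey squares are Lpar4, which was not tested. Lpar6 reaches 1.08 and -1.20 in the pairs that include vehicle mouse 4 and stays at -0.12 between vehicle mice 1 and 2.

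Marker lists moved between the same mice. Between DEHP mice 4 and 1, 77.4% of all tested genes passed, in either direction. Of the Leydig cell markers 9 of 10 and of the macrophage markers 6 of 9 passed as lower in mouse 4. So did 6 of 6 endothelial and 5 of 6 peritubular myoid markers, while 10 of 10 spermatid markers passed as higher. The Leydig cell list averaged 0.60 in DEHP mouse 1 and -0.77 in DEHP mouse 4, against -0.49, 0.22 and 0.43 in vehicle mice 1, 2 and 4. The macrophage list averaged 0.42 and -0.52 in DEHP mice, against -0.44, 0.06 and 0.49 in vehicle mice. Enpp2 was lowest in vehicle mouse 1 and DEHP mouse 4, where these lists and the endothelial and myoid lists were also lowest. Lpar6 was highest in vehicle mouse 4 and DEHP mouse 1, where the Leydig cell and macrophage lists were also highest. It was low in vehicle mice 1 and 2, while in vehicle mouse 2 these lists stood at 0.22 and 0.06. The part of cell makeup in these differences was not tested.

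The spread over the 5 mice sets the members apart in size. The range from the lowest to the highest mouse was larger for Lpar4 than in 91.9% of tested genes, for Lpar6 than in 77.8%, for Lpar1 than in 44.9%, for Lpar3 than in 40.3%, for Enpp2 than in 39.6% and for Lpar2 than in 11.2%. For each gene the 3 tested genes with the smallest root mean square difference over the 5 mouse values were listed. This is a likeness over 5 mice with no test. Of the 15830 tested genes, the 2415 whose names stayed as in the files were left out of this search. Nearest to Lpar4 was Slc26a3, an intestinal chloride and bicarbonate exchanger, at 0.16 log2 units, with 1.20 and 0.40 in DEHP mice, against -0.89, -0.18 and -0.53 in vehicle mice. Marchf3, a ubiquitin ligase, and Eif3a, a subunit of a translation initiation factor, followed at 0.24 and 0.26. Nearest to Lpar6 were Sdf4 at 0.13, Plscr2, a phospholipid scramblase gene, and Ly86, which encodes the immune protein MD-1, at 0.15 each. Nearest to Enpp2 were Ppfibp2, Arcn1 and Lage3, nearest to Lpar3 Tspan33, Zfp429 and Angptl6, nearest to Lpar1 4930430F08Rik, Clnk and Epb41l2, and nearest to Lpar2 Spink10, Bnip5 and Mapkapk5.

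Genes that make, break down or relay LPA differed in direction. Of 27 listed genes of LPA making and breakdown, 21 were tested, of which 10 had a difference above 0 and 11 below, with a median of -0.02, and 0 passed the adjusted test. Lclat1, a lysophospholipid acyltransferase, averaged -0.34 ± 0.22 in DEHP mice against 0.22 ± 0.44 in vehicle mice. Gdpd1, which can release LPA from lysophospholipids, stood at -0.21 and 0.88 in DEHP mice, against -0.03, -0.35 and -0.29 in vehicle mice, so that only DEHP mouse 4 stood apart. Of the other ENPP ectoenzymes, 4 of 6 were tested. Enpp1, which makes pyrophosphate, was at 0.27 and 0.21 in DEHP mice, against -0.42, 0.03 and -0.09 in vehicle mice. Enpp4 was at 0.17 and 0.27 in DEHP mice, against -0.43, -0.15 and 0.14 in vehicle mice. Both DEHP mice lay above all vehicle mice in these 2 of 4 genes (3.95% of all tested genes), and neither passed the adjusted test. Of further LPA receptors, P2ry10 did not pass the filter, and Lpar5 was not analysed here.

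Downstream, 27 of 35 genes of the G protein and cytoskeletal relay were tested, of which 14 had a difference above 0 and 13 below, with a median of 0.01 and 0 past the adjusted test. Rock1, a protein kinase of the actin cytoskeleton, was at 0.27 and 0.68 in DEHP mice, against -0.40, -0.08 and -0.48 in vehicle mice, and differed by 0.79 (SE 0.24, limma unadjusted p = 0.0176, adjusted p = 1.00). Both DEHP mice lay above all vehicle mice in 2 of the 27 relay genes, Rock1 and Gnai1 (3.95% of all tested genes), and below them in 2, Gna14 and Arhgef11 (5.22% of all tested genes). Rock2, a relative of Rock1, differed by 0.05 (SE 0.20). Gna11, the alpha subunit of a Gq-type protein, differed by -0.46, with DEHP mouse 4 at -0.71 and DEHP mouse 1 at 0.16, against 0.09, 0.28 and 0.18 in vehicle mice. Of 19 genes known as targets or cofactors of SRF and YAP, transcription regulators that answer changes of the actin cytoskeleton, 14 were tested, with 3 above 0, 11 below, a median of -0.16 and 0 past the adjusted test. Both DEHP mice lay above all vehicle mice in 1 of the 14 (3.95% of all tested genes) and below them in 1 (5.22% of all tested genes). Myl9, a myosin light chain of smooth muscle, had the lowest value, with 0.15 and -1.35 in DEHP mice, against -0.59, 1.30 and 0.48 in vehicle mice. The peritubular myoid markers moved beside it, with list means of 0.06 and -0.58 in DEHP mice, against -0.35, 0.74 and 0.13 in vehicle mice. Acta2 (difference -0.89) and Tagln (-0.87) belong to both lists, so these are not separate readings. The part of the myoid cells was not tested. Fos, an immediate early gene, differed by -0.32 and was well above background on 1 of 12 DEHP arrays and 9 of 12 vehicle arrays. It passed the filter through vehicle mice alone, the group where it was higher, so no change is read from it.

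**Figure D5:**
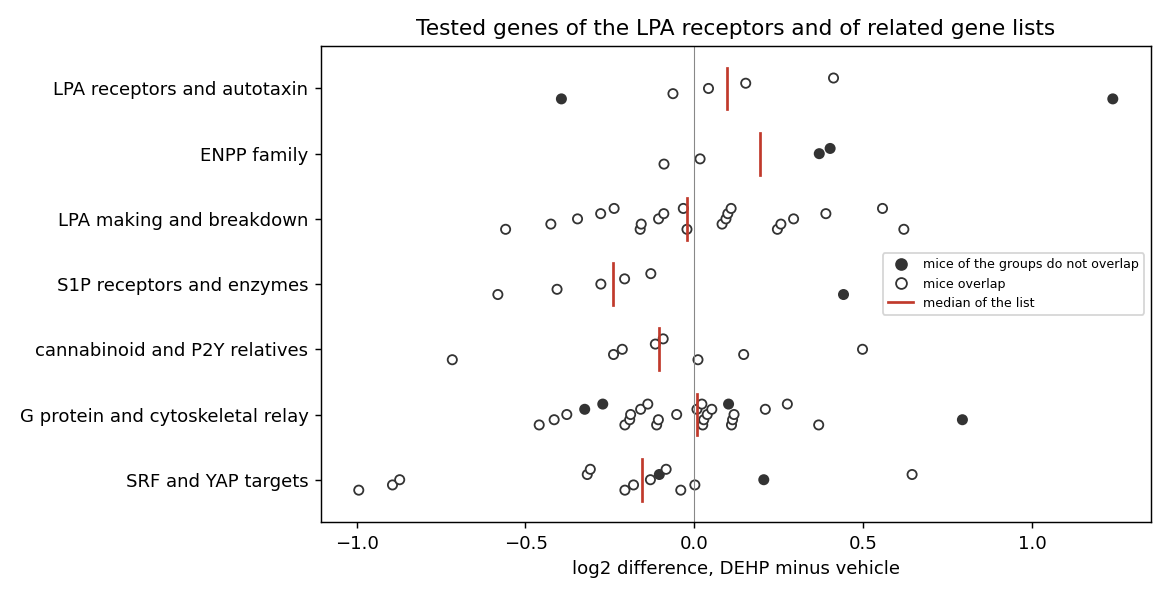
Log2 difference of DEHP minus vehicle (x axis) for each tested gene of the family and of the related lists (y axis), with red marks at list medians and filled points where the mice of the groups do not overlap. Lpar4 lies at 1.24, Rock1 at 0.79, and the list medians lie between -0.24 and 0.19.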

How the data were processed

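The scanner files hold the intensity of each spot (mean signal and median local background in Cy5 and Cy3), deposited as Feature Extraction 9.5.1.1 wrote it (version per the file headers). Per the file headers they also hold that software's processed intensity, used as an alternative, its log10 ratio (Cy5 over Cy3), used to check directions, and flags of 0 or 1 for spots well above background or outlying. The deposited value table holds log2 ratios made by the authors for 13669 spots. Set against the scanner's log ratios it correlated at r = 0.915 to 0.993 and ran as DEHP over vehicle, with column medians from -0.06 to 0.00; its filter and exact scale are unknown here. Per the submitters' processing notes the authors used limma (version not given). Columns of samples left unused numbered 0.

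The files were analysed with limma 3.58.1 under R 4.3.3. Backgrounds were subtracted by normexp (offset 50), arrays were normalized by loess, and control and outlier spots were left out. Least squares on the 12 log ratios gave 1 value for each of 5 mice and 1 dye effect. The filter kept 21198 of 41174 probes, those well above background on a share of 0.5 or more of the arrays in 2 or more mice, and the brightest probe represented a gene. The mouse values entered the group comparison, and the 12 array ratios that of mice of a group, both by lmFit and eBayes, two-sided, with Benjamini-Hochberg adjustment over 15830 genes and a threshold of 0.05. The functions were tested on simulated data. Of the gene names, 10550 came through RefSeq accessions, 1894 were current symbols, 971 older symbols, and 2415 stayed as in the files.

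The members and lists were chosen with earlier results of these data known. The text names every member and probe, the 3 genes nearest to each member, the markers, and for a list without calls its 2 genes of lowest unadjusted p; Enpp4, Rock2, Gnai1, Gna14, Arhgef11 and the gene that hosts Lpar6 were added after their values were seen. The number of arrays and of mice limits the precision. Alternatives covered background, scaling, filter, probes per gene, dye, slide, left-out mice, the mouse number as a block and the authors' table.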

Additional observations from a re-analysis of the deposited data

How the results depend on the processing

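The count of genes past the adjusted threshold between DEHP and vehicle mice was 0 in limma under each alternative that was run. Over 16 alternatives the Lpar4 difference ran from 1.06 to 2.47 and over 17 the Lpar3 difference from -0.68 to -0.26; slides 1 and 2 alone give the same fit as leaving out vehicle mouse 4. With single mice left out, Lpar4 ran from 1.06 to 1.42 and Lpar3 from -0.53 to -0.26; the authors' deposited table gave 1.96 for Lpar4, on the 9 arrays with a value, and -0.57 for Lpar3. The other members turned sign. Lpar1 was -0.14 without DEHP replicate 4 (0.15 with it; -0.14 to 0.44 over left-out mice). Lpar2 was 0.0903 on slide 3 alone and 0.0087 without vehicle replicate 1 (-0.14 to 0.0087), and -1.36 from the scanner's processed signals. Lpar6 was -0.35 on slide 3 alone (0.10 to 0.79 over left-out mice). Enpp2 was -0.0809 on slide 3 alone, -0.17 without DEHP replicate 1 and -0.13 without vehicle replicate 1 (-0.17 to 0.25). Between DEHP mice 4 and 1, median centring turned Lpar3 to 0.0764, Lpar6 to 0.0256 and Enpp2 to 0.14, and between vehicle mice 1 and 2 processed signals turned Lpar6 to 0.0038. Of 73 alternatives to the 11 calls between mice, 63 kept the call, 6 lost it and 4 turned. The causes were not tested. A replicate block for the mouse number gave 1.37 for Lpar4, -0.35 for Lpar3 and 0.25 for Lpar6, with 0 genes past the threshold. Same-numbered mice deviated in opposite directions (r = -0.73 for number 1 and -0.56 for number 4). With 2 DEHP mice the deviations of 1 mirror those of the other, so these r values cannot decide whether the numbers pair the mice. A dye effect for each slide could not be fitted, since slides 1 and 2 hold 1 orientation each. A separate dye effect for slide 3, chosen after seeing the data, left the values as they were. The balance of the dyes over the pairs of mice fixes that outcome, so it is no check. Requiring every array well above background gives no value for Lpar4 or Lpar2, and the authors' table none for Lpar2 or Enpp2. Signal over background limits Lpar2 and the vehicle level of Lpar4, and 5 mice limit the rest.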

Other observations

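Relatives of the LPA receptors were read beside them. Of 11 sphingosine 1-phosphate receptors and enzymes, 6 were tested, with 1 difference above 0 and 5 below, a median of -0.24 and 0 past limma's adjusted test. Sphk2, a sphingosine kinase, was at 0.14 and 0.39 in DEHP mice, against -0.16, -0.24 and -0.13 in vehicle mice (difference 0.44, SE 0.19). Both DEHP mice lay above all vehicle mice in this 1 of the 6 genes (3.95% of all tested genes). S1pr3, an EDG-type receptor for sphingosine 1-phosphate, was at -0.02 and -0.47 in DEHP mice, against -0.29, 0.47 and 0.31 in vehicle mice. Of 15 cannabinoid and P2Y relatives, 8 were tested, with 3 above 0 and 5 below, a median of -0.10 and 0 past the test. Gpr183, an oxysterol receptor of immune cells, was at 0.67 and -0.07 in DEHP mice, against -0.80, 0.03 and 0.17 in vehicle mice. P2ry6, a receptor for UDP, was at 0.49 and -1.35 in DEHP mice, against -0.41, 0.61 and 0.67 in vehicle mice, with DEHP mouse 4 alone far below the others.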
